A study of Mus musculus with 16 samples.

Results

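The 10 genes described here belong to the interleukin-6 (IL-6) family and its signalling route, and they were followed across kidneys of mice with and without glycerol-induced muscle breakdown (rhabdomyolysis). They were chosen by symbol among the 20525 genes of the deposited matrix: the cytokines Il6, Lif, Il11 and Clcf1, the receptor subunits Il6ra, Il6st, Lifr and Osmr, the transcription factor Stat3 and the feedback inhibitor Socs3. All 10 were found, each under 1 gene identifier, and all 10 passed the filter on low values (at least 10 in at least 4 libraries). Il6 and Il11 passed it through glycerol libraries only, with at most 2.4 and 8.6 in any PBS library. Their glycerol over PBS results are therefore not independent of that filter. RNA from lysed frozen kidney sections of 30 µm was sequenced in 16 libraries, 4 in each of 4 groups. The groups were C3-/- mice given glycerol, WT mice given glycerol, C3-/- mice given PBS and WT mice given PBS, all 8 weeks old and with a strain background labelled C56BL/6. C3-/- denotes loss of complement component C3; glycerol mice received 7.5 ml/kg of a 50% solution into the thigh muscle. The sources used here give neither the interval between injection and kidney collection nor the part of C3 that was deleted.

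IL-6 family cytokines bind receptors that share the signal-transducing subunit gp130, the product of Il6st. The activated receptor complex works through Janus kinases, which phosphorylate STAT3, and STAT3 then enters the nucleus and switches on target genes that include the acute-phase genes. One target, Socs3, encodes an inhibitor that binds gp130 and the kinases and so limits the signal, and its transcript is widely used as a readout of the route. In injured kidney the family is known for taking part in acute-phase gene expression, tubular stress and repair.

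Promoter sequences from RefSeq (GRCm38.p6), 250 bases before to 50 bases after each annotated start, were given for 9 of the 10 members, in 11 entries. Those of Il6, Lif, Osmr and Socs3 are shown because these genes are the cytokines, the receptor subunit and the feedback gene that the results turn on. Capitals mark matches, on either strand, to the letters of motifs named for AP-1 (TGANTCA), STAT factors (TTCNNNGAA, and a longer spacing with 1 more N), C/EBP (TTGCNNAA), CRE (TGACGTCA) and NF-kB. The Il6 promoter lies at chr5:30012864-30013163 on the plus strand, Lif at chr11:4257318-4257617 on the plus strand, Osmr at chr15:6874264-6874563 on the minus strand and Socs3 at chr11:117969317-117969616 on the minus strand. Gene positions given below come from another annotation, GENCODE M21, in which the Osmr and Socs3 windows lie inside the gene.
Il6: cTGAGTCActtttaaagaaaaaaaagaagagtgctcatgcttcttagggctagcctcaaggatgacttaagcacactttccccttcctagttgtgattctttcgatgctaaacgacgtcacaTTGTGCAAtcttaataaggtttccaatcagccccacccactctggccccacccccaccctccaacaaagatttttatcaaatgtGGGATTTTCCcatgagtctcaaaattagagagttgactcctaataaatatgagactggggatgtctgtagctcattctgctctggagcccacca
Lif: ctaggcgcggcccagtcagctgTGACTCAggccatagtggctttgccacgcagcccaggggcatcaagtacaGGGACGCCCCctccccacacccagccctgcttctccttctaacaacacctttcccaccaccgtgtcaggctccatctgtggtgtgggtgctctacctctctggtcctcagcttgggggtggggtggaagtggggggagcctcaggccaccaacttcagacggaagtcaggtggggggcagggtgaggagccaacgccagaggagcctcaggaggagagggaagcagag
Osmr: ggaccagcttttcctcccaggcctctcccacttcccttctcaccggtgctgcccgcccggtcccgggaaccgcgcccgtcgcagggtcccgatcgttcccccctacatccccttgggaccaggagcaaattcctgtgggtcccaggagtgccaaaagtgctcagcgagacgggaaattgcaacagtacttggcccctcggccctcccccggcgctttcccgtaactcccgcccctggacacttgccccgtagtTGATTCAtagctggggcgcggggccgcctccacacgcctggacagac
Socs3: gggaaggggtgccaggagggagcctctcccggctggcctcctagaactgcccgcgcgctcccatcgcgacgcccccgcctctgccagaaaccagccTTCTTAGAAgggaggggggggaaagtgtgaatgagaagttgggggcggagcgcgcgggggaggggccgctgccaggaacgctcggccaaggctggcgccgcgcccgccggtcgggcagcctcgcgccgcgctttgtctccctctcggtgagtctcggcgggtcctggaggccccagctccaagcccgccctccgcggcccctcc
In the Il6 promoter the capitals are an AP-1 match (TGAGTCA) 249 bases before the start, a C/EBP match (TTGTGCAA) at 128 bases and an NF-kB match (GGGATTTTCC) at 44 bases. In the Lif promoter they are an AP-1 match (TGACTCA) at 228 bases and an NF-kB match (GGGACGCCCC) at 178 bases before the start. The Osmr match (TGATTCA) is an AP-1 match that begins at base 4 of the RefSeq transcript, and the Socs3 match (TTCTTAGAA) is a STAT match 154 bases before the RefSeq start. Il11 also held an AP-1 match in one of its 2 entries and a STAT match with the longer spacing in the other. AP-1 letters thus stood in 4 of the 9 members with an entry, against 8.97% of the 27025 genes with one. The STAT letters of the Socs3 promoter stood in 9.55% of those genes, the longer spacing in 8.01%, C/EBP in 12.2% and NF-kB in 9.55%. The CRE letters were in none of the members' windows and in 2.03% of all genes. A match describes letters in these windows and not a bound site.

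Values are read counts per gene that the authors normalized with DESeq2. The read depth behind them is unknown. Between 1.8% and 2.1% of a library's values were multiples of its lowest value, so the values were not traced back to whole reads. The C3 transcript did not separate the genotypes as a check of the labels would need: it was at 8008, 1457, 5495 and 1587 in the C3-/- glycerol libraries and at 3729, 1712, 2783 and 4718 in the WT glycerol libraries, then at 819, 1140, 860 and 564 in the C3-/- PBS libraries and at 335, 361, 470 and 425 in the WT PBS libraries. In PBS kidneys C3 was higher in every C3-/- library than in any WT library. The log2 difference was 1.05 ± 0.48 (limma adjusted p = 0.442, and 0.00968 within list 1). With the deleted part unknown, these levels do not check the genotype labels, which are used as given. The sample descriptions number 13 libraries from 1 to 13 (list 1 below), and 3 further libraries repeat some of these numbers (list 2): C3-/- glycerol 1, C3-/- glycerol 3 and WT glycerol 4. The labels do not say what the repeated numbers stand for. The list 2 libraries had between 750 and 3374 genes at 0, against 190 to 540 in list 1, and their column sums were 35808689 to 38388663 normalized counts, against 25810749 to 34013927. The Y-linked transcript Ddx3y was present in 11 libraries, among them all 8 WT libraries and 3 of the 8 C3-/- libraries. In the other 5 libraries, all C3-/-, Ddx3y was at most 1.1 and the X-linked transcript Xist was at 16098 to 35410. The C3-/- against WT comparisons thus differ in Y-linked transcripts as well as in genotype, also within list 1. Among C3-/- libraries Ddx3y was present in glycerol 3, glycerol 4 and PBS 4. Glycerol over PBS in C3-/- kidneys and the difference between the responses are therefore also unbalanced in Y-linked transcripts, also within list 1. Counts of members with a term for Y-linked transcripts in the fit are given below. Because of the list 2 libraries, many of the comparisons are also given within list 1. It holds 2 C3-/- glycerol, 3 WT glycerol, 4 C3-/- PBS and 4 WT PBS libraries. Tubule and podocyte markers were abundant in every library, and in these bulk sections fewer cells of a type and less RNA per cell cannot be told apart.

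After glycerol, 4 of the 10 members rose in C3-/- kidneys (Il6, Lif, Clcf1 and Socs3) and 1, Lifr, fell. In WT kidneys 7 rose: all 4 cytokines, the receptor subunit Osmr, Stat3 and Socs3. After glycerol, Il6, Lif, Il11, Osmr and Socs3 were lower in C3-/- than in WT kidneys, and the glycerol response itself differed between the genotypes for Lif and Osmr. Calls are adjusted p-values below 0.05 from limma's moderated two-sided test on log2(normalized count + 1), with Benjamini-Hochberg adjustment over all 18035 genes tested. By that rule 5.63% of all genes were called for glycerol in C3-/- kidneys (3.68% higher and 1.96% lower), 25.9% for glycerol in WT kidneys (12.5% higher) and 11.2% for C3-/- against WT after glycerol (4.85% lower). The share was 2.23% for C3-/- against WT after PBS and 0.438% for the difference between the responses (0.216% lower). The labels do not say that the libraries of a group came from separate mice, so these p-values measure the spread between libraries.

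**Figure D1:**
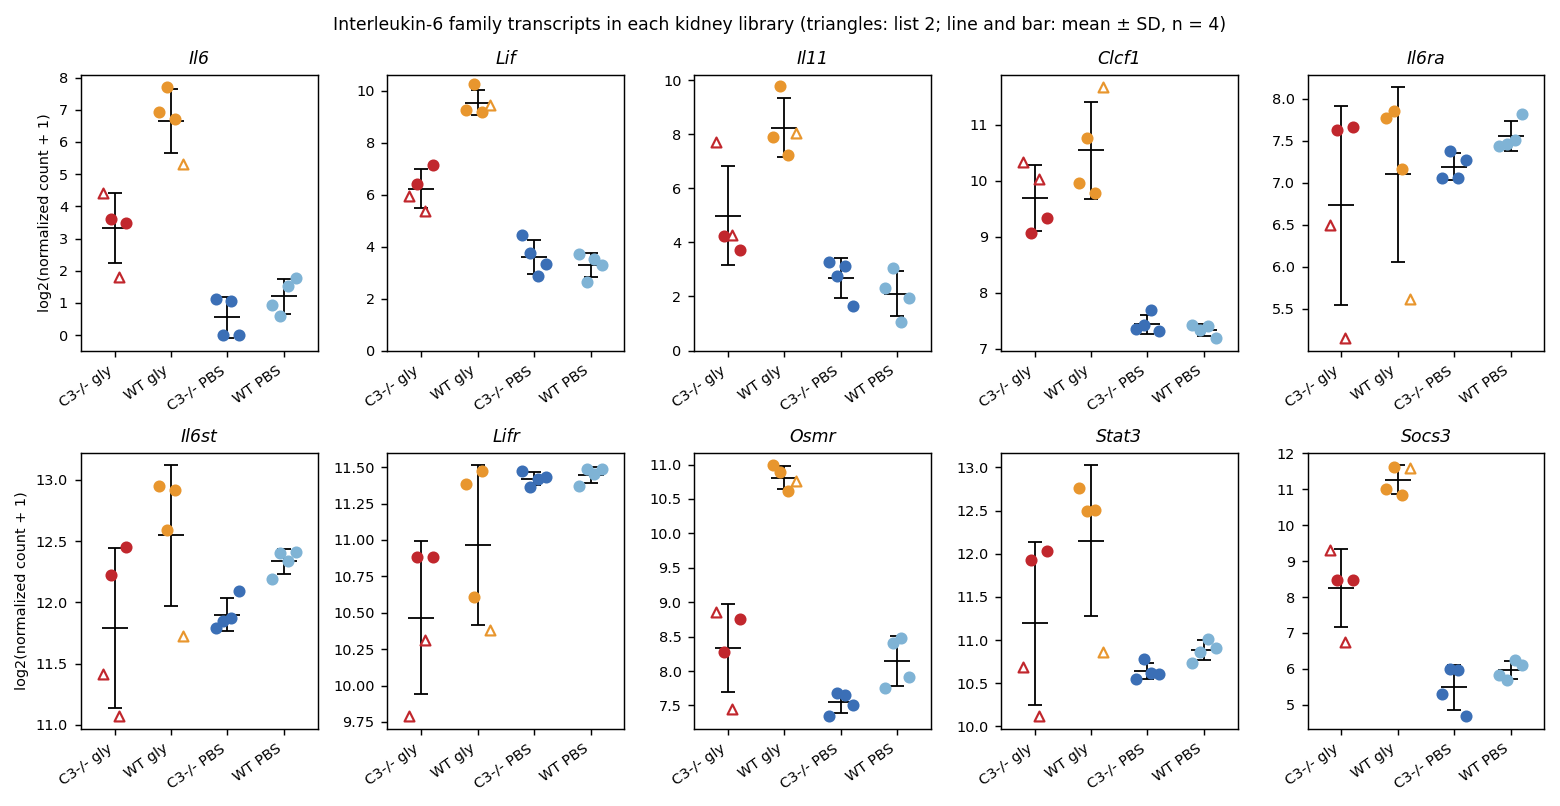
Each panel plots 1 member as log2(normalized count + 1) in every library; the groups from left to right are C3-/- glycerol, WT glycerol, C3-/- PBS and WT PBS, triangles are the 3 list 2 libraries, and the line and bar are the mean ± SD (n = 4). For Il6, Lif, Osmr and Socs3 every WT glycerol library sits above every C3-/- glycerol library.

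Il6 encodes the cytokine that names the family (chromosome 5, 30013114 to 30019981, plus strand). Its normalized count was 20.2, 11.2, 2.5 and 10.3 in the C3-/- glycerol libraries and 120.2, 207.6, 103.1 and 38.9 in the WT glycerol libraries. In PBS kidneys it was 1.2, 0, 1.1 and 0 in C3-/- libraries and 0.9, 0.5, 1.9 and 2.4 in WT libraries. Every glycerol library lay above every PBS library of its genotype, and every C3-/- glycerol library lay below every WT glycerol library. Of the list 2 libraries, C3-/- glycerol 1 had the highest value of its group (20.2), and C3-/- glycerol 3 (2.5) and WT glycerol 4 (38.9) had the lowest of theirs. On the log2 scale Il6 was higher after glycerol by 2.77 ± 0.61 (SE; adjusted p = 0.0145) in C3-/- and by 5.47 ± 0.61 (adjusted p = 2.67e-05) in WT kidneys, by limma. The C3-/- call was lost without C3-/- glycerol 1 (2.41, adjusted p = 0.0533) or without C3-/- PBS 2 (2.58, adjusted p = 0.0551), and also with a pseudocount of 8 (1.07, adjusted p = 0.0998) or with only the groups compared in the fit (adjusted p = 0.0708). After glycerol, Il6 was lower in C3-/- than in WT kidneys, with a log2 difference of -3.34 ± 0.61 (adjusted p = 0.00234) that was -3.56 within list 1 (adjusted p = 0.000414). With only the groups compared in the fit, Il6 was no longer called there. The difference between the responses was -2.70 ± 0.86 and was not called (limma adjusted p = 0.212), while within list 1 it was -2.93 (adjusted p = 0.0169).

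Lif, leukaemia inhibitory factor, signals through LIFR and gp130 (chromosome 11, 4257557 to 4272514, plus strand). It stood at 60.3, 85.0, 40.8 and 141.5 in C3-/- glycerol libraries and at 612.0, 1214.0, 578.7 and 707.6 in WT glycerol libraries, against 20.7, 12.5, 6.4 and 9.1 in C3-/- PBS libraries and 12.2, 5.2, 10.5 and 8.7 in WT PBS libraries. No glycerol library overlapped the PBS libraries of its genotype, and the highest C3-/- glycerol value was well below the lowest WT glycerol value. In C3-/- kidneys the mean after glycerol was 6.73 times the PBS mean, and the log2 difference was 2.62 ± 0.42 (limma adjusted p = 0.00213). In WT kidneys the ratio of means was 84.7, and the log2 difference of 6.24 ± 0.42 (limma adjusted p = 6.23e-07) ranked 7 by p-value among all genes tested. Lif was lower in C3-/- than WT kidneys after glycerol, with a log2 difference of -3.31 ± 0.42 (limma adjusted p = 0.000143). Lif was 1 of 2 members whose response itself differed, by -3.62 ± 0.60 (95% interval -4.89 to -2.35, limma adjusted p = 0.012). Within list 1 that difference was -3.08 (adjusted p = 0.00944), and its adjusted p ranged from 0.00667 to 0.0384 when each library was left out in turn.

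Il11, a cytokine with fibrogenic activity that uses its own receptor with gp130 (chromosome 7, 4772373 to 4782859, minus strand), was more uneven. C3-/- glycerol libraries held 212.5, 18.1, 18.4 and 12.1, and WT glycerol libraries held 241.8, 880.2, 150.1 and 264.0. C3-/- PBS libraries held 8.6, 5.8, 7.8 and 2.1, and WT PBS libraries held 4.0, 7.4, 1.1 and 2.8. The list 2 library C3-/- glycerol 1 alone reached the WT glycerol range, so these groups overlapped, while all glycerol libraries lay above the PBS libraries of their genotype. In C3-/- kidneys the log2 difference of glycerol over PBS was 2.30 ± 0.79 and was not called (limma adjusted p = 0.0999), and within list 1 it was 1.29 (adjusted p = 0.21). In WT kidneys Il11 was higher after glycerol by 6.16 ± 0.79 on the log2 scale (limma adjusted p = 8.52e-05). After glycerol, Il11 was lower in C3-/- than in WT kidneys, by -3.25 ± 0.79 (limma adjusted p = 0.0149). That difference was -4.17 without C3-/- glycerol 1 and -4.33 within list 1 (adjusted p = 0.00119). It was no longer called without WT glycerol 2 (-2.74, adjusted p = 0.0571) or with only the groups compared in the fit. The difference between the responses was -3.86 ± 1.12 (limma adjusted p = 0.163). It was called without C3-/- glycerol 1 (-4.77, adjusted p = 0.0184) and within list 1 (-4.93, adjusted p = 0.00835).

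Clcf1, cardiotrophin-like cytokine factor, signals through the ciliary neurotrophic factor receptor with LIFR and gp130 (chromosome 19, 4214238 to 4223490, plus strand). It measured 1287.8, 536.1, 1051.8 and 646.4 in C3-/- glycerol libraries, 1000, 1726.7, 875.7 and 3263.1 in WT glycerol libraries, 161.5, 169.7, 204.8 and 158.5 in C3-/- PBS libraries and 170.7, 161.1, 167.6 and 145.3 in WT PBS libraries. Glycerol and PBS libraries were fully apart in both genotypes, but the glycerol groups of the 2 genotypes overlapped, and the list 2 libraries were the highest of each. The log2 difference of glycerol over PBS was 2.25 ± 0.36 in C3-/- (limma adjusted p = 0.00194) and 3.20 ± 0.36 in WT kidneys (adjusted p = 2.67e-05). After glycerol the genotypes differed by -0.85 ± 0.36, which was not called (limma adjusted p = 0.149), whereas list 1 gave -0.96 (adjusted p = 0.00851). The difference between the responses was -0.95 ± 0.50 and was not called (limma adjusted p = 0.571), but was within list 1 (-1.06, adjusted p = 0.0381). Clcf1 shares 311 exonic bases with an overlapping gene model on its strand, AC109138.7, and the sources do not say how such reads were counted.

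**Figure D2:**
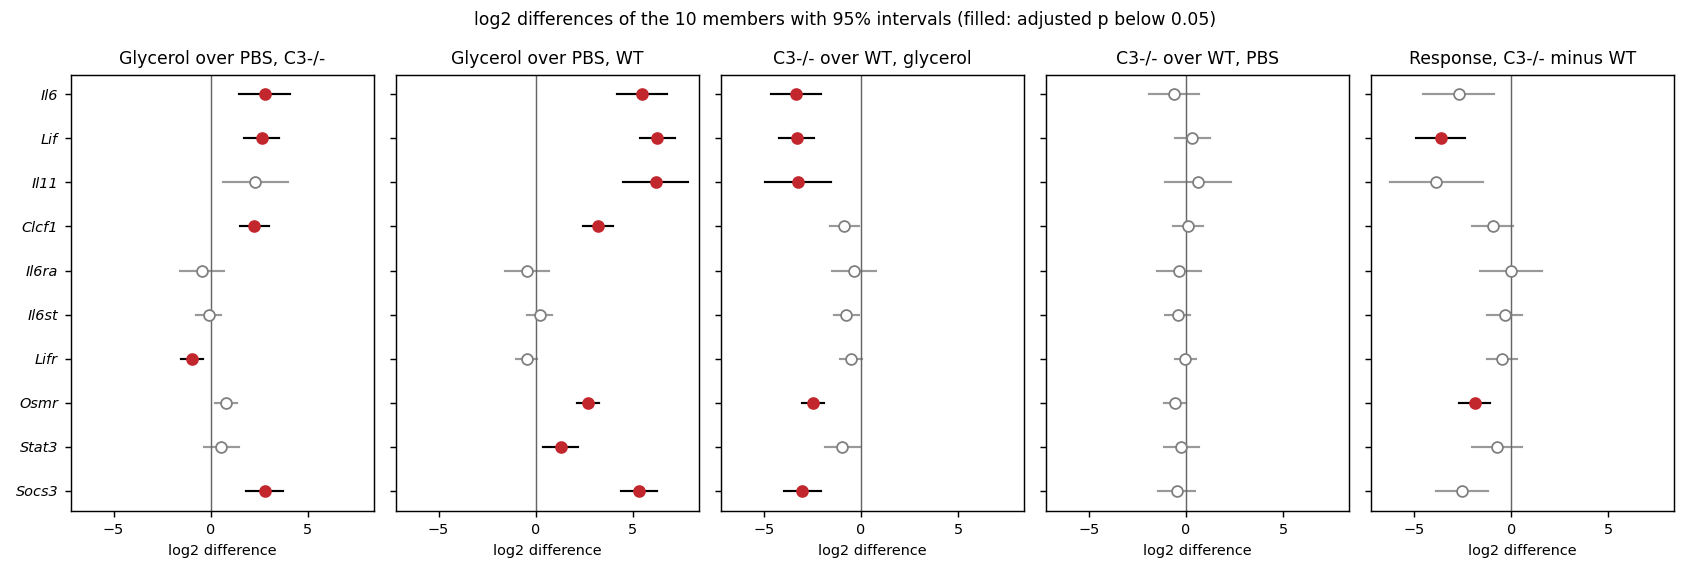
The 5 panels plot each member's log2 difference in 1 comparison, with its 95% interval as a line; filled points have an adjusted p below 0.05 (limma). The cytokines, Osmr and Socs3 lie right of 0 for glycerol over PBS in WT, and 5 members lie left of 0 with filled points for C3-/- over WT after glycerol.

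Among the receptor subunits, Osmr stood apart from Il6ra, Il6st and Lifr. Osmr, the oncostatin M receptor subunit that pairs with gp130 (chromosome 15, 6813577 to 6874969, minus strand), was at 462.6, 307.9, 174.1 and 429.5 in C3-/- glycerol libraries and at 2029.7, 1889.5, 1564.8 and 1727.0 in WT glycerol libraries. In PBS kidneys it was at 161.4, 203.4, 200.0 and 181.8 in C3-/- libraries and at 214.3, 339.2, 357.4 and 239.8 in WT libraries. All WT glycerol libraries were above all other libraries, whereas the C3-/- glycerol libraries overlapped the C3-/- PBS libraries. In C3-/- kidneys the log2 difference of glycerol over PBS was 0.79 ± 0.27 (limma adjusted p = 0.0961), and it was called without the list 2 library C3-/- glycerol 3 (1.08, adjusted p = 0.00638) and within list 1 (0.96, adjusted p = 0.00649). In WT kidneys Osmr rose by 2.67 ± 0.27 on that scale (limma adjusted p = 1.22e-05). After glycerol Osmr was lower in C3-/- than in WT kidneys by a log2 difference of -2.48 ± 0.27 (limma adjusted p = 3.08e-05), with an adjusted p of at most 0.000228 when any library was left out.

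The response of Osmr differed between the genotypes by -1.88 ± 0.38 on the log2 scale (95% interval -2.69 to -1.08, limma adjusted p = 0.0412). Within list 1 the difference was -1.72 (adjusted p = 0.00421). Leaving out any 1 of C3-/- glycerol 2, WT glycerol 1, WT glycerol 2 or the 8 PBS libraries ended this call, with log2 differences of -2.0 to -1.75 and adjusted p of 0.0565 to 0.109. In PBS kidneys Osmr was lower in all 4 C3-/- libraries than in any WT library, with a log2 difference of -0.59 ± 0.27 that was not called (limma adjusted p = 0.438) and that was called within list 1 (adjusted p = 0.0314).

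Il6st encodes gp130 itself (chromosome 13, 112464070 to 112510086, plus strand). It was at 2727.6, 4771.2, 2150.4 and 5602.5 in C3-/- glycerol libraries, 7907.7, 6159.3, 7745.9 and 3380.5 in WT glycerol libraries, 3533.7, 3679.4, 3753.2 and 4361.8 in C3-/- PBS libraries and 4664.3, 5400.1, 5186.7 and 5443.8 in WT PBS libraries. The list 2 libraries were the lowest of each glycerol group, and the other glycerol libraries were above every PBS library of their genotype. With all libraries the log2 difference of glycerol over PBS was -0.11 ± 0.30 in C3-/- (limma adjusted p = 0.821) and 0.21 ± 0.30 in WT kidneys (adjusted p = 0.626). Within list 1 Il6st was called higher in both, by 0.44 in C3-/- (adjusted p = 0.0224) and by 0.48 in WT kidneys (adjusted p = 0.00217). After glycerol the C3-/- minus WT difference was -0.76 ± 0.30 (limma adjusted p = 0.124), and it was called without C3-/- glycerol 4 (-0.98, adjusted p = 0.0429) or without WT glycerol 4 (-1.03, adjusted p = 0.0146).

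Lifr, the LIF receptor subunit that pairs with gp130 (chromosome 15, 7090614 to 7197489, plus strand), was not called higher in any comparison. Its values were 883.6, 1890.2, 1268.4 and 1885.0 in C3-/- glycerol libraries, 2678.2, 1563.3, 2845.2 and 1335.1 in WT glycerol libraries, 2843.5, 2635.3, 2733.2 and 2760.4 in C3-/- PBS libraries and 2646.3, 2870.0, 2803.8 and 2865.4 in WT PBS libraries. All C3-/- glycerol libraries were below all C3-/- PBS libraries, and in WT kidneys the groups overlapped. The log2 difference of glycerol over PBS was -0.96 ± 0.26 in C3-/- (limma adjusted p = 0.0449) and -0.48 ± 0.26 in WT kidneys (adjusted p = 0.187). The C3-/- call rested close to the threshold: it was lost without C3-/- glycerol 1, C3-/- glycerol 3 or any 1 of the 8 PBS libraries, with adjusted p of 0.0649 to 0.142, and within list 1 the difference was -0.54 (adjusted p = 0.0456).

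Il6ra, the subunit that binds IL-6 (chromosome 3, 89864059 to 89913196, minus strand), was not called in any comparison. It was at 89.2, 196.6, 34.5 and 201.0 in C3-/- glycerol libraries, 218.1, 229.5, 142.2 and 47.8 in WT glycerol libraries, 132.5, 165.1, 132.0 and 153.8 in C3-/- PBS libraries and 172.1, 175.4, 180.9 and 224.4 in WT PBS libraries. The 3 lowest values of all 16 libraries were those of the list 2 libraries. The log2 difference of glycerol over PBS was -0.46 in both genotypes (SE 0.52 in each; limma adjusted p = 0.566 in C3-/- and 0.542 in WT kidneys), with a 95% interval of -1.58 to 0.66 in C3-/- and -1.57 to 0.66 in WT kidneys. Within list 1 the same differences were 0.45 in C3-/- and 0.04 in WT kidneys, so the direction turned with the list 2 libraries left out.

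Stat3 (chromosome 11, 100885098 to 100939540, minus strand), the transcription factor of the route and itself a known STAT3 target, was at 1646.4, 3903.1, 1109.3 and 4193.2 in C3-/- glycerol libraries and at 6914.7, 5757.4, 5803.5 and 1855.6 in WT glycerol libraries. In PBS kidneys it was at 1502.0, 1756.0, 1576.5 and 1556.4 in C3-/- libraries and at 1699.6, 1866.3, 2065.7 and 1922.5 in WT libraries. The list 2 libraries were again the lowest of each glycerol group and fell within or below the range of PBS values of their genotype. With all libraries the log2 difference of glycerol over PBS for Stat3 was 0.55 ± 0.42 in C3-/- kidneys (limma adjusted p = 0.392), and in WT kidneys Stat3 was higher by 1.27 ± 0.42 (adjusted p = 0.0372). The WT call was lost when any 1 of WT glycerol 1, 2 or 3 or of the 4 WT PBS libraries was left out, with adjusted p of 0.0657 to 0.0957.

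Within list 1 Stat3 was called higher in both genotypes, by 1.34 ± 0.10 in C3-/- (limma adjusted p = 5.09e-06) and by 1.70 ± 0.09 in WT kidneys (adjusted p = 5.21e-08). After glycerol the C3-/- minus WT difference was -0.96 ± 0.42 with all libraries (limma adjusted p = 0.17). It was -1.39 without WT glycerol 4 (adjusted p = 0.0136) and -0.60 within list 1 (adjusted p = 0.00152). The difference between the responses was not called with all libraries or within list 1, where it was -0.36 (limma adjusted p = 0.104). Stat3 shares 72 exonic bases with Stat5a on the opposite strand, and the sources do not state the strand setting of the counting.

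**Figure D3:**
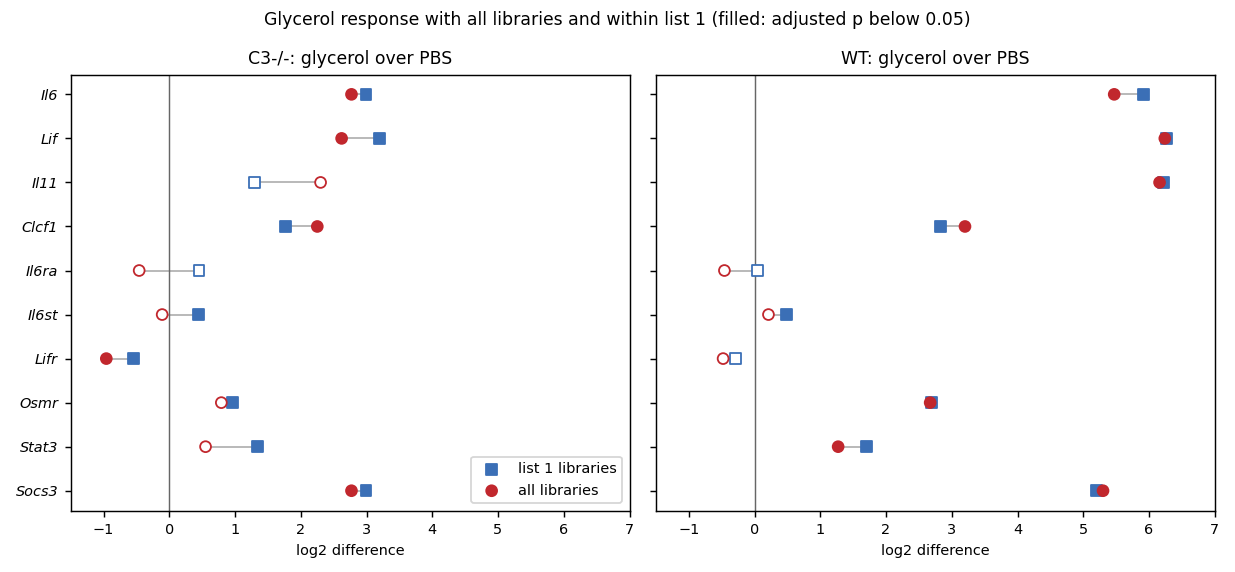
The panels plot the log2 difference of glycerol over PBS for each member in C3-/- (left) and WT kidneys (right), with all libraries (circles) and within list 1 (squares); filled symbols have an adjusted p below 0.05 (limma). Stat3 in C3-/- kidneys lies at 0.55 with all libraries and at 1.34 within list 1, and Il6ra crosses 0, while Osmr in WT lies at 2.67 and 2.69.

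Socs3 (chromosome 11, 117966079 to 117970047, minus strand), the feedback inhibitor whose promoter with the STAT letters is shown above, was at 637.1, 354.3, 106.2 and 355.7 in C3-/- glycerol libraries and at 2067.6, 3165.4, 1841.4 and 3050.1 in WT glycerol libraries. In PBS kidneys it was at 38.5, 62.3, 61.7 and 24.7 in C3-/- libraries and at 55.9, 50.4, 74.9 and 68.0 in WT libraries. The 2 glycerol groups did not overlap each other or the PBS libraries. The ratio of glycerol to PBS means was 7.76 in C3-/- and 40.6 in WT kidneys. The log2 difference was 2.77 ± 0.44 in C3-/- (limma adjusted p = 0.00205) and 5.30 ± 0.44 in WT kidneys (adjusted p = 2.96e-06, rank 27 by p-value). After glycerol Socs3 was lower in C3-/- than in WT kidneys by a log2 difference of -3.01 ± 0.44 (limma adjusted p = 0.000485), and list 1 gave -2.69 (adjusted p = 0.000225). The difference between the responses, -2.53 ± 0.62, was not called (limma adjusted p = 0.096), but was within list 1 (-2.21, adjusted p = 0.0114) and without C3-/- glycerol 1 (-2.89, adjusted p = 0.0325).

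Counted over the 10 members, 4 were called higher and 1 lower after glycerol in C3-/- kidneys, and 7 higher and 0 lower in WT kidneys. The C3-/- count of 5 was 3 without C3-/- glycerol 1 or without C3-/- PBS 2. After glycerol 0 members were called higher and 5 lower in C3-/- than in WT kidneys. An unadjusted p below 0.05 added Il11 and Osmr to those higher in C3-/- glycerol kidneys and Clcf1, Il6st and Stat3 to those lower than in WT, levels that 24.7% and 24.6% of all genes reached in either direction. In the directions counted here as 0, there were also 0 members at that level. Groups that do not overlap were found for 5 members higher (9.53% of all genes) and 1 lower (9.71%) after glycerol in C3-/-, 6 higher in WT (18.2%) and 4 lower in C3-/- than WT after glycerol (5.07%). Il6 and Il11, which passed the low-value filter through glycerol libraries only, are among those higher after glycerol in both genotypes. For the difference between the responses 2 members were called lower, a count that was 1 without any of the 11 libraries named for Osmr and 4 without C3-/- glycerol 1. Within list 1 the counts were 7 higher (12.4% of all genes) and 1 lower (10.6%) in C3-/- kidneys, 8 higher in WT kidneys (26.7%), 8 lower in C3-/- than WT after glycerol (14.6%) and 6 lower for the difference between the responses (5.42%). With terms for list and for Y-linked transcripts in the fit they were 8 higher (10.3%) and 1 lower (8.47%) in C3-/- kidneys, 8 higher in WT kidneys (23.1%), 8 lower after glycerol (14.3%) and 5 lower for the difference (3.79%). The authors' deposited tables, at their adjusted p below 0.05, called 7 members for glycerol in C3-/- kidneys (15.9% of genes with an adjusted p), the 5 called here with Il11 and Osmr added. They called the same 7 for glycerol in WT kidneys (29.0%) and the same 5 for C3-/- against WT after glycerol (16.8%).

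In PBS kidneys limma called 0 members between C3-/- and WT, and 1 member, Osmr, had an unadjusted p below 0.05 (0.0427), against 10.4% of all genes. Il6ra, Il6st and Osmr were each lower in all 4 C3-/- PBS libraries than in any WT PBS library, a separation that 13.1% of all genes showed. Within list 1, which keeps all 8 PBS libraries but takes the spread from fewer glycerol libraries, Il6st (-0.43, adjusted p = 0.0108) and Osmr were called lower, with 19.3% of all genes called in either direction. Il6, Lif and Il11 were low in both genotypes, with means of 0.58 ± 0.67 and 1.41 ± 0.88 for Il6 in C3-/- and WT kidneys (SD, n = 4 each).

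Per kilobase of exon, the order of the levels changed with glycerol. The length used is that of all annotated exons of a gene together, not of the transcript expressed. The order between genes is therefore approximate. In C3-/- glycerol kidneys Il6st led at 344 normalized counts per kb, then Stat3 at 285, Clcf1 at 231, Lifr at 138 and Socs3 at 126, and the ranges of all neighbours in the order overlapped. In WT glycerol kidneys Socs3 stood first by mean, at 876 per kb, though its range overlapped that of Il6st at 567, and Il6ra was last at 18.4.

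In C3-/- PBS kidneys Il6st led at 345 per kb, followed by Lifr at 255, Stat3 at 168 and Clcf1 at 45.6, with no overlap between these 4, and Il6 was lowest at 0.239. In WT PBS kidneys the first 4 were in that order too, at 466, 260, 198 and 42.4, again with no overlap. There Osmr (23.7), Il6ra (21.8) and Socs3 (21.5) overlapped one another, and Lif (2.11), Il11 (1.83) and Il6 (0.58) were lowest. Clcf1 was the most abundant of the 4 cytokines in every group by mean level per kb, and Il6 the least.

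**Figure D4:**
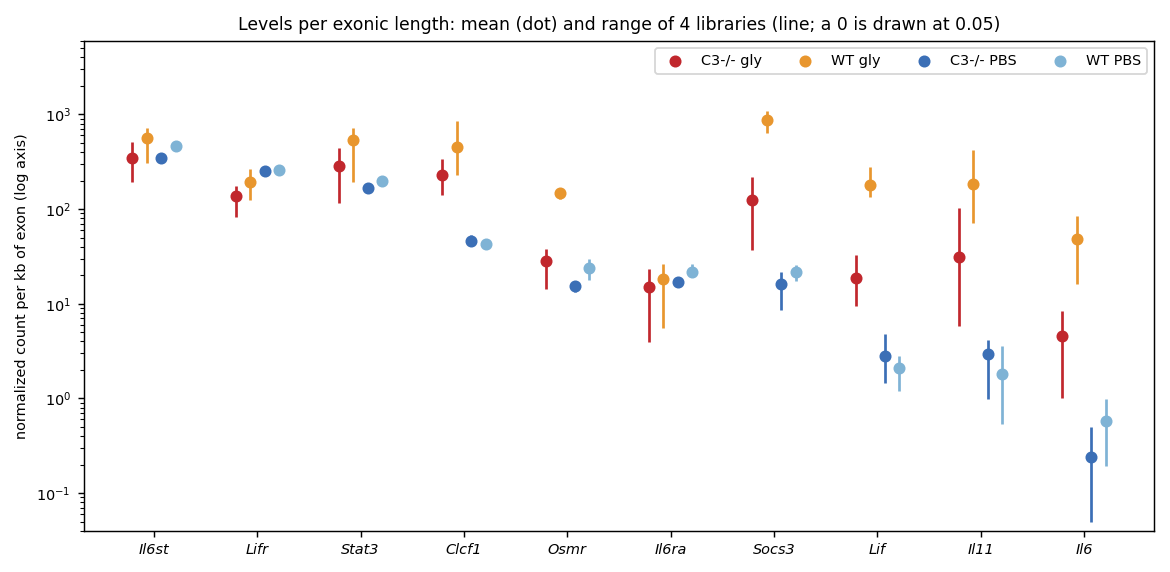
Mean (dot) and range (line) of 4 libraries per group, as normalized count per kb of exon on a log axis, for the 10 members ordered by their WT PBS mean. Il6st and Stat3 are among the first 3 in all groups, Il6ra lies between 15.1 and 21.8 in all groups, and Socs3, Lif, Il11 and Il6 have their highest mean in WT glycerol kidneys.

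Of 8 other genes listed as family ligands or their partners, 6 were in the matrix and 4 were tested. Ctf1, cardiotrophin-1, was higher in C3-/- than in WT kidneys after glycerol (1.03, limma adjusted p = 0.0496). Osm, the ligand of OSMR, was too low for the test, at 2.8, 1.8, 3.7 and 3.6 in C3-/- glycerol libraries and between 0 and 23.9 in WT glycerol libraries, with at most 5.1 in any PBS library. Of 5 other receptor genes 3 were tested, and limma called 0 in any of the 5 comparisons with all libraries. An unadjusted p below 0.05 was reached by Il27ra for glycerol in WT. Cntfr, the ciliary neurotrophic factor receptor, reached it for C3-/- against WT after glycerol and for the difference between the responses. Within list 1, glycerol in WT kidneys had 1 called higher and 2 lower, where 4810 and 5218 of the 18035 genes were. Il11ra1 fell within list 1 in WT (-0.47, limma adjusted p = 0.000688) and in C3-/- kidneys (-0.44, adjusted p = 0.00793). Cntfr was higher within list 1 in C3-/- than WT kidneys after glycerol (0.86, limma adjusted p = 0.0222). Its response also differed there (1.22, adjusted p = 0.0311).

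Of 14 genes for Janus kinases, other STATs, phosphatases and inhibitors, limma called 0 after glycerol in C3-/- kidneys, while Jak2 and Stat5b were lower at an unadjusted p below 0.05. In WT kidneys 2 of the 14 rose, close to the 12.5% of all genes called higher, and 1 fell, where 2404 of the 18035 genes were called lower. Those that rose were Socs2, another SOCS inhibitor (2.91, limma adjusted p = 0.00172), and Ptpn2, a phosphatase that removes phosphate from JAKs and STATs (0.94, adjusted p = 0.000555); Stat5b fell by 0.53 (adjusted p = 0.0135). Within list 1, 1 rose and 1 fell in C3-/- kidneys (12.4% of all genes higher and 10.6% lower), and 6 rose and 1 fell in WT kidneys (26.7% of all genes higher). After glycerol Ptpn2 was lower in C3-/- than WT kidneys (-0.65, limma adjusted p = 0.012). Of 4 genes for shedding of the IL-6 receptor, Rhbdf2, a regulator of the protease ADAM17, rose in C3-/- (1.05, limma adjusted p = 0.0454) and in WT kidneys (1.49, adjusted p = 0.00171), and within list 1 all 4 rose in WT.

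The list of STAT3 target genes held 29 genes, of which 28 were in the matrix and 26 were tested. After glycerol 7 rose in C3-/- kidneys (3.68% of all genes), with a median log2 difference of 0.89 against -0.06 over all genes tested. In WT kidneys 17 rose (12.5% of all genes) and 1 fell (2404 of 18035 genes), with a median of 1.74 against -0.11. C3-/- kidneys had 10 of the 26 lower (4.85% of all genes) and 1 higher (1150 of 18035 genes) than WT kidneys after glycerol, with a median of -1.0 against 0.04. Within list 1 the counts were 14 higher (12.4% of all genes) and 2 lower (10.6%) in C3-/- kidneys. In WT kidneys they were 18 higher (26.7%) and 3 lower (5218 of 18035 genes). Between the genotypes after glycerol they were 2 higher (2795 of 18035 genes) and 13 lower (14.6%). All 7 genes called in C3-/- kidneys were among the 18 called in WT kidneys.

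Targets differed in how they compared between the genotypes. Fgg, the fibrinogen gamma chain of the acute phase, averaged 1362 ± 981 in C3-/- and 14704 ± 5582 in WT glycerol kidneys (SD, n = 4 each), and its response differed by -4.53 (limma adjusted p = 0.0446), the 1 call of the list. Timp1, an inhibitor of matrix proteases, averaged 187.1 ± 243.3 in C3-/- and 2121 ± 1108 in WT glycerol kidneys, a log2 difference of -4.17 (limma adjusted p = 0.00182). Lcn2, the tubular injury marker NGAL, rose in C3-/- (4.82, limma adjusted p = 0.000608) and in WT kidneys (7.66, adjusted p = 3.35e-06) and was lower in C3-/- than WT kidneys after glycerol, by a log2 difference of -2.79 (adjusted p = 0.0115). Myc rose in both genotypes, by 3.01 ± 0.29 in C3-/- (limma adjusted p = 3.89e-05) and 3.17 ± 0.29 in WT kidneys (adjusted p = 5.04e-06), and its C3-/- minus WT difference after glycerol was 0.01 ± 0.29. Many of these genes are also known targets of other factors, NF-kB among them.

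**Figure D5:**
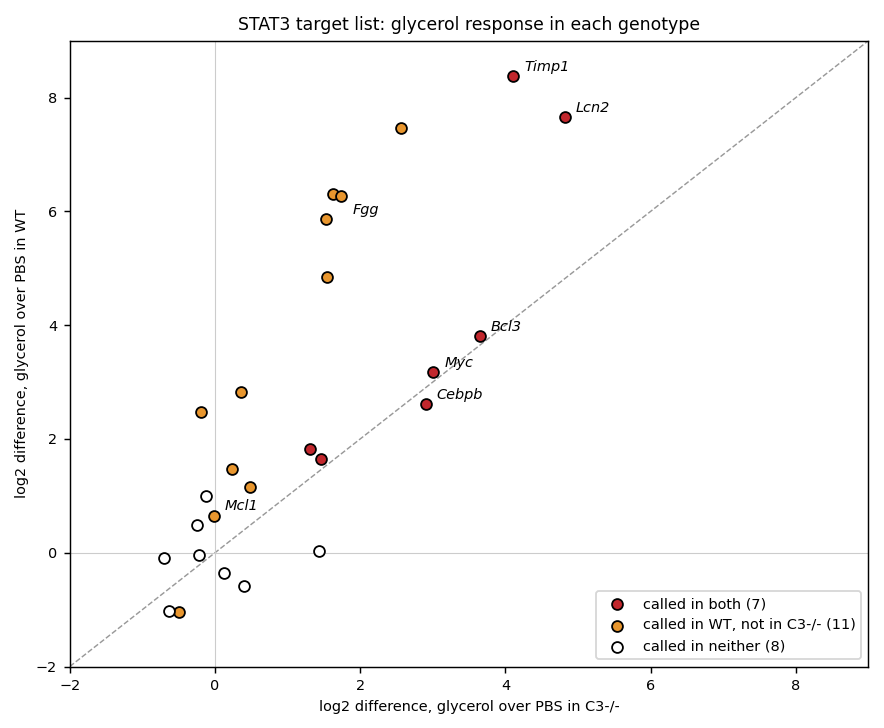
Each point is 1 of 26 tested STAT3 target genes, with the log2 difference of glycerol over PBS in C3-/- kidneys on the x axis and in WT kidneys on the y axis; the dashed line marks equal differences. Of the points, 7 are called in both genotypes, 11 in WT and not in C3-/-, and 8 in neither; Fgg and Timp1 lie well above the line and Myc and Bcl3 near it.

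Markers of several cell types differed between the groups along with the members. The summed level of the 5 neutrophil markers in the matrix, of 8 listed, was 67.9 to 225.7 in C3-/- and 493.9 to 1133 in WT glycerol libraries, and 30.4 to 50.0 in C3-/- and 144.4 to 224.0 in WT PBS libraries. Of these 5, limma called 3 higher after glycerol in WT (12.5% of all genes), and none of the 5 was at 0 throughout a group. It called 4 lower in C3-/- than WT after glycerol (4.85% of all genes) and 2 lower in C3-/- than WT after PBS (215 of 18035 genes). The summed level of the 5 fibroblast and pericyte markers was 2215 to 5248 in C3-/- and 7292 to 13937 in WT glycerol libraries. In PBS libraries it was 2515 to 3586 in C3-/- and 4003 to 7710 in WT. Of these 5 markers 3 were called lower in C3-/- than WT after glycerol, against 4.85% of all genes. For glycerol over PBS in WT, 2 were called higher (12.5% of all genes) and 1 lower (2404 of 18035 genes). Col1a1 (1.85, limma adjusted p = 0.00188) and Col3a1 (1.93, adjusted p = 0.0025) rose there, and Dcn fell (-1.21, adjusted p = 0.00348). The summed level of the 8 macrophage and monocyte markers was 2957 to 4665 in C3-/- and 2989 to 4983 in WT glycerol libraries, but single markers went opposite ways. After glycerol Itgam (-2.97, limma adjusted p = 0.00229) and Ccr2 (-1.5, adjusted p = 0.00526) were lower in C3-/- than WT kidneys and Csf1r was higher (1.21, adjusted p = 0.00348), while Cd68 rose after glycerol in C3-/- (2.54) and in WT kidneys (2.87).

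Markers of tubule segments were also among the genes called. Of 7 proximal tubule markers limma called 1 lower in C3-/- and 6 lower in WT kidneys, and their summed level was 51543 to 241205 in C3-/- and 18928 to 88012 in WT glycerol libraries. Of 5 loop and distal tubule markers 1 was called lower in C3-/- and 4 in WT kidneys, and after glycerol 3 were higher in C3-/- than WT kidneys. Of 5 collecting duct markers 2 were called lower after glycerol in WT kidneys, and after glycerol 3 were higher in C3-/- than WT kidneys. Over all 18035 genes tested, 353 were called lower after glycerol in C3-/- and 2404 in WT kidneys. After glycerol, 1150 of all genes were called higher in C3-/- than WT kidneys. The part of these cell types in the levels of Il6, Lif, Il11, Osmr and Socs3 was not tested.

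The genes whose log2 levels over the 16 libraries were most like those of Il6, out of 11707 whose mean was 100 or more, were Tmem173 (Pearson r = 0.976), Ptp4a1 (0.975), Spp1 (0.974), Nfkbiz (0.974) and Eif4a1 (0.972). Those most like Socs3 were Bak1 (0.987), Zyx (0.985), Efhd2 (0.980), Clic1 (0.976) and Runx1 (0.976). Spp1, which encodes osteopontin, averaged 134051 in C3-/- and 726550 in WT glycerol kidneys, against 32965 in C3-/- and 24731 in WT PBS kidneys, and Runx1 averaged 242.8 and 837.3 against 42.7 and 63.4 in the same 4 groups. These correlations are across libraries that share 4 groups and describe likeness of pattern only.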

How the data were processed

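The deposited matrix holds a signal per gene, the read count that the authors normalized with DESeq2, in 16 libraries. The submitters' processing notes name GRCm38 with STAR 2.7.1, R 3.6.1 and DESeq2, but the sources give neither the counting program nor its strand setting. The authors also deposited 3 tables of comparisons (log2 fold change, test score, p-value, adjusted p-value). Between 1.8% and 2.1% of a library's values were multiples of the lowest one (tolerance 0.01), so whole reads were not recovered and no count model was run.

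Values were tested as log2(value + 1) with limma 3.58.1 in R 4.3.3, with a mean-variance trend and 1 coefficient per group over all 16 libraries, on the 18035 genes with at least 10 in at least 4 libraries. This scale understates changes of low genes. Groups came from the sample titles. Alternatives changed the pseudocount, filter, scaling, trend, weights, block, libraries and covariates (list, and Ddx3y above 100), and left out each library; the fit was tested on simulated data. All members were named in every comparison, with the top genes by p-value of each pathway list and, for Il6 and Socs3, the 5 genes most alike. The result of 1 gene that this rule named is not reported here. The members and lists were chosen with earlier results of these data known, so no list is independent evidence.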

Additional observations from a re-analysis of the deposited data

Results flagged for a closer look

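Among the 40 member-by-group sets of 4 libraries, 3 held a library far from the other 3 by Dixon's criterion; chance gives about 1 in 20. Il11 was 212.5 in C3-/- glycerol 1, against 12.1 to 18.4 in the other C3-/- glycerol libraries. Il11 was 880.2 in WT glycerol 2, against 150.1 to 264.0 in the other WT glycerol libraries. Il6ra was 224.4 in WT PBS 4, against 172.1 to 180.9 in the other WT PBS libraries. The glycerol response of 2 members differed between C3-/- and WT kidneys by the interaction term: Lif by -3.62 and Osmr by -1.88 on the log2 scale.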

How the results depend on the processing

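The 5 members called for glycerol in C3-/- kidneys became 8 with array weights (a fit that stopped before it converged), 3 with only the groups compared, 8 within list 1 and 9 with covariates for list and Y-linked transcripts together. The 5 called for C3-/- over WT after glycerol became 9, 3, 8 and 8 under those 4 settings. Il6 and Il11 were the members lost with only the groups compared. The 0 called after PBS became 3 with array weights, 3 with only the groups compared and 2 within list 1. The 2 called for the difference between responses became 8 with array weights, 1 with the replicate block, 6 within list 1 and 5 with covariates. Leaving out each library gave 3 to 5 for C3-/-, 6 to 7 for WT, 4 to 7 after glycerol, 0 to 0 after PBS and 1 to 4 for the difference; the cause was not tested.
Some directions turned, all of values not called with all libraries in the fit described. For the Il6ra response difference it was 0.01 with a pseudocount of 8, 0.34 with array weights, 0.41 within list 1 and 0.55 with covariates. Glycerol over PBS for Il6ra was 0.43, 0.45 and 0.57 in C3-/- and 0.09, 0.04 and 0.02 in WT kidneys with array weights, within list 1 and with covariates, and for Il6st in C3-/- kidneys 0.40, 0.44 and 0.42, each of these 3 called (adjusted p = 0.00964, 0.0224 and 0.0363). C3-/- over WT after glycerol for Il6ra was 0.05 within list 1. After PBS, Lifr was 0.03 with quantile normalization and 0.09 with covariates, and Il11 was -0.72 with covariates. With libraries left out, Il6ra ranged from -0.77 to 0.07 in C3-/-, -0.71 to 0.04 in WT, -0.86 to 0.16 after glycerol and -0.50 to 0.53 for the difference, and Il6st in C3-/- kidneys from -0.33 to 0.13.
Of 24 same-numbered library pairs 4 deviated together (r above 0.1, range -0.692 to 0.385). The lowest value joined C3-/- glycerol 4 of list 1 with WT glycerol 4 of list 2. With the lists mixed in this way, the check cannot settle whether the numbers pair the libraries. With the replicate block 4 members were called in C3-/- (Lifr adjusted p = 0.102; 632 of all genes, against 1016 without the block), 6 in WT (Stat3 0.0642) and 1 for the difference (Osmr 0.0998).
Over all genes, the 79 calls for the difference between responses were 141 with a pseudocount of 8, 48 at a mean of at least 100, 3225 with array weights, 41 with the block, 1858 within list 1, 1580 with covariates and 38 to 225 with a library left out. Quantile normalization gave 38 higher and 56 lower, against 40 and 39. Depth is unknown, so no limit from counting error can be given.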
